A study of Mus musculus with 48 samples.

Results

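The arrays compared here cover the close of neuron production in the mouse hypothalamus and preoptic area, as 8 arrays of embryonic days 15 and 16 (E15 and E16) against 7 arrays of E13 and E14. They were chosen by age from the 48 arrays of a developmental series in which each age has 1 array per strain and sex. The strains are the inbred C57Bl/6 and the outbred CD-1, neither of which carries a transgene or a treatment, and the labels state the same chow and light cycle for all animals. The later group holds a female and a male array of each strain at E15 and at E16. The earlier group holds the same at E13, and at E14 the C57Bl/6 male, the CD-1 female and the CD-1 male. The C57Bl/6 E14 female was left out because its signal for Col3a1, a fibrillar collagen of mesenchyme and meninges, was 3500, above a limit of 1000. The other 15 arrays lay between 56.4 and 201 for this gene. The labels do not say how many embryos or litters stand behind an array, so p-values measure the spread between single arrays, which may be partly technical. Levels are MAS5 signal, an array intensity on a linear scale, and changes are differences of log2(signal + 16), which understate the change of dim genes.

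The hypothalamus and preoptic area arise from neuroepithelium around the third ventricle. Radial glia divide at the ventricle, proneural factors such as Neurog2 commit daughter cells to a neuronal fate, and Notch signalling through Hes genes holds others back as progenitors. As neuron production ends, progenitors turn to making astrocytes and oligodendrocyte precursors, while newborn neurons extend axons and begin to make neuropeptides, receptors and synaptic proteins. Genes that define the labelled tissue and its neighbours were checked. The hypothalamic factor Otp read 1240 to 3540 in the 15 arrays, Nkx2-1 57.9 to 169 and the peptide precursor Pomc 127 to 639. The cortical neuron factor Tbr1 read 7.71 to 170 and the thalamic factor Gbx2 1.41 to 106. Some other cortical genes read higher, such as Eomes (106 to 159 earlier, 103 to 422 later) and Neurod2 (134 to 211 and 75 to 416). The amount of neighbouring tissue was not tested.

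Several arrays stood apart. The C57Bl/6 E13 female and male lay at -57.03 and -50.68 on the first principal component (37.8% of the variance over the genes tested), while the other 13 arrays lay between -14.96 and 25.02. The 2 CD-1 E13 arrays lay at -4.37 and -6.89, inside the range of C57Bl/6 E14 and E15. Median signal was 59.7 to 79.4 in C57Bl/6 and 50.8 to 57 in CD-1, and the 2 C57Bl/6 E13 arrays had the highest values. The ratio of 3′ to 5′ actin signal, which rises with RNA degradation, was 1.36 and 1.66 in the C57Bl/6 E13 arrays, 1.17 to 1.35 in the other C57Bl/6 arrays and 1.03 to 1.13 in CD-1. The same ratio for Gapdh did not set the C57Bl/6 E13 arrays apart, at 0.832 and 0.825. It was 0.797 to 0.949 in the other C57Bl/6 arrays and 0.739 to 0.83 in CD-1. The part of RNA quality in the results was not tested. The array labelled C57Bl/6 E16 male gave 1850 for Xist, the transcript of the inactive X chromosome, and 60.4 for the Y-linked Eif2s3y, so it carries both a female and a male marker. Ptgds, a meningeal enzyme, read 577 and 687 in the C57Bl/6 E16 arrays and 63.1 to 155 in the other 13. Counts of list members called are therefore also given without both C57Bl/6 E13 arrays, a comparison chosen after the data were seen.

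**Figure D1:**
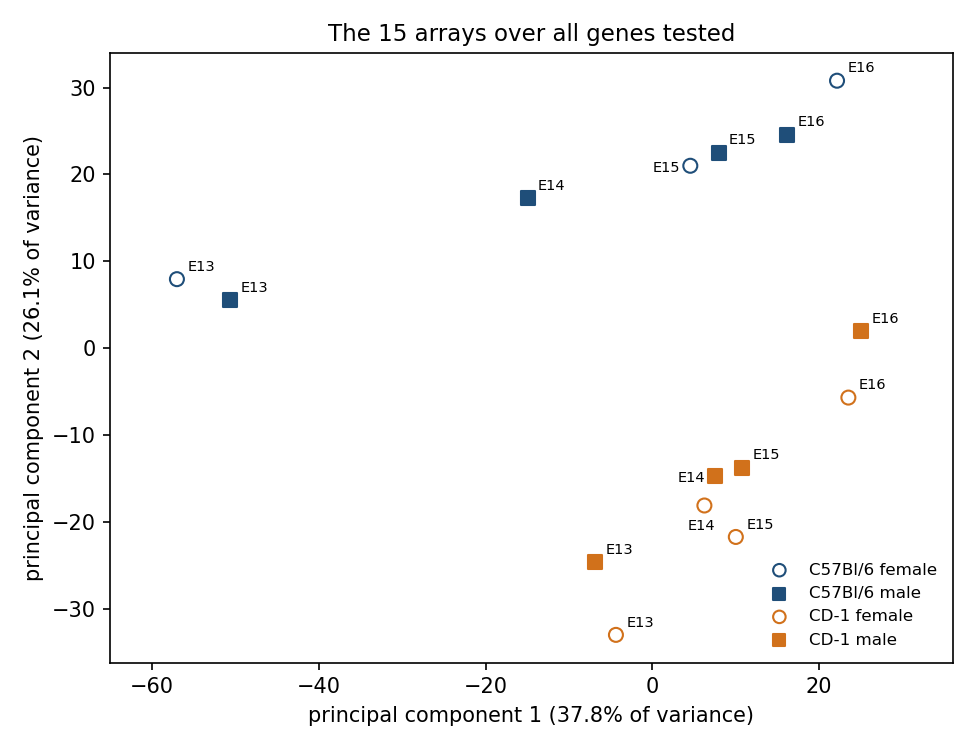
Each point is an array, placed by its scores on the 2 leading principal components of log2(signal + 16) over 12038 genes; colour gives the strain, open circles are females and filled squares males. Both C57Bl/6 E13 arrays lie far to the left on the first component, at -57.03 and -50.68, and the second component parts the strains.

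Between the 2 pairs of days, 3002 of 12038 genes changed (24.9%), with 1752 higher (14.6%) and 1250 lower (10.4%) at E15 and E16, by limma with strain as a covariate and a Benjamini-Hochberg adjusted p under 0.05. With array medians set equal, 1570 were higher and 1560 lower, so the excess of rises depends on the scaling. Changes of at least 2-fold were fewer, at 130 higher and 54 lower. In 136 genes (1.13%) all 8 later arrays lay above all 7 earlier ones, and in 59 (0.49%) all 8 lay below. The size of the count rests on few arrays. It was 1967 without the C57Bl/6 E13 female, 1914 without the C57Bl/6 E13 male, 690 without both (465 higher, 3.86%, and 225 lower, 1.87%), and 2 without the 4 E13 arrays. The shares of 3.86% and 1.87% are the background for each list's count without both C57Bl/6 E13 arrays. It was 3320 in C57Bl/6 alone and 23 in CD-1 alone (0.191%), of which 13 were lower (0.108%). When the female and the male array of an age and strain were averaged to 1 value, 0 genes passed in limma, with 3110 at an unadjusted p under 0.05.

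The largest rises, among genes whose later arrays all lay above the earlier ones within each strain, were these. Grm5, a metabotropic glutamate receptor, read 17.7 and 19.8 in C57Bl/6 and 54.7 and 41.3 in CD-1 at E13. At E14 it read 125 in C57Bl/6 and 87.4 and 77.2 in CD-1. At E15 it read 261 and 264 in C57Bl/6 and 153 and 99.0 in CD-1, and at E16 356 and 410 in C57Bl/6 and 375 and 313 in CD-1. Within each strain every later array lay above every earlier one, and the log2 change was 2.0 ± 0.32 (SE; adjusted p = 0.00167). Gnal, the G protein alpha subunit of olfactory and striatal neurons, rose by 1.79 ± 0.37 (adjusted p = 0.00396), from a median of 108 to 289, while another of its probe sets was at 0.24 and not called. Vsnl1, a neuronal calcium sensor, rose by 1.71 ± 0.30 (adjusted p = 0.00192), from a median of 132 to 483. Tnc, the matrix protein tenascin C of glial progenitors and astrocytes, rose by 1.65 ± 0.28 (adjusted p = 0.00179), and its 7 earlier arrays (20.7 to 122) did not overlap the 8 later ones (148 to 444). The other 8 of the leading rises lay between 1.45 and 1.59. They were the lectin family gene Clec2l, the secretogranin Scg2, the axonal adhesion gene Cntn1, the small GTPase Rasl10b, the orphan receptor Gpr12, the teneurin Tenm1, the actin-binding Ablim3 and the glycine receptor subunit Glra2.

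The largest falls among genes that kept apart within each strain in the same way are given next. Other genes, described further on, had falls as large as several of these or larger but were not apart in this sense. Among them were the embryonic globins, Foxd1, Rrm2, Neurog2, Mki67 and Pomc. Hmga2, a chromatin protein of fetal stem cells, read 645, 878, 714 and 552 at E13, 225, 296 and 311 at E14, 154, 142, 249 and 254 at E15, and 93.5, 102, 166 and 155 at E16. The 4 E13 arrays stood above all the others, and over the pooled days it fell by 1.47 ± 0.26 on the log2 scale (adjusted p = 0.00213). Cdkn1c, an imprinted inhibitor of the cell cycle made in cells that leave it, fell by 1.33 ± 0.21 (adjusted p = 0.00158), from a median of 2010 to 667. Dbx1, a homeobox factor of progenitors, read 187 to 420 earlier and 70.4 to 177 later without overlap, and its change was alike in C57Bl/6 (-1.24) and CD-1 (-1.25). Ccnd1, the cyclin that drives G1, read 678 to 2420 earlier and 280 to 669 later without overlap. Its change was -2.0 in C57Bl/6 and -0.54 in CD-1, and a test for a strain difference did not call it. The other 8 leading falls lay between -1.23 and -0.94, namely Thsd4, the peptide precursor Cartpt, St18, Apool, the imprinted Mest, the RNA-binding Zfp36l1, the ubiquitin ligase subunit Skp2 and Sinhcaf.

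Members of 35 gene lists are described by counts and medians, beside a median change of -0.012 over all genes tested. The background for each list's counts in the full comparison is the 14.6% of all genes tested that rose and the 10.4% that fell. A few members called against the main direction of a list can lie below it. The lowest medians were those of mitosis (-0.93), proneural factors and Notch signalling (-0.62) and DNA replication (-0.61). The highest medians were those of transmitter receptors (0.63), synapse (0.49), neuropeptides and hormones (0.45) and oligodendrocyte precursors (0.45). In bulk tissue, fewer cells of a type and less RNA per cell cannot be told apart.

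**Figure D2:**
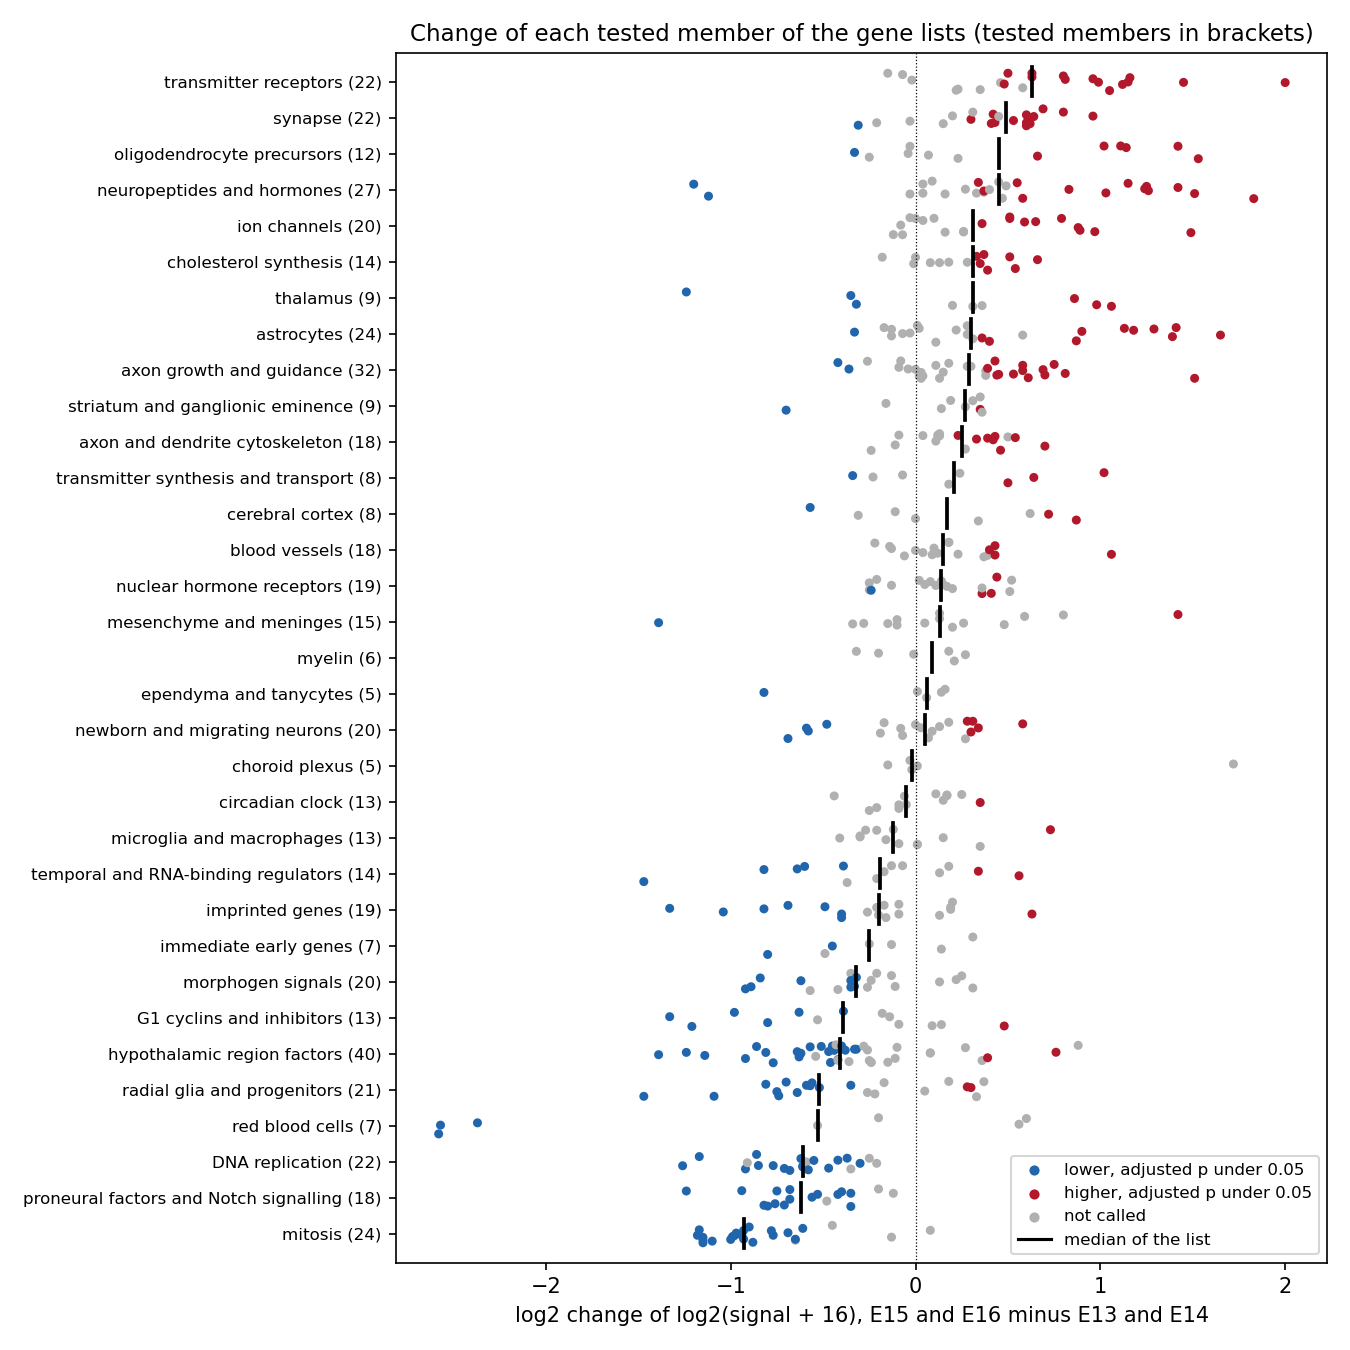
Each point is the log2 change of a tested gene, E15 and E16 minus E13 and E14, in the 33 lists with at least 5 tested members, sorted by their median (black bar); blue and red mark genes called lower or higher and grey those not called. The cell cycle, proneural and progenitor lists lie to the left of 0, and the receptor, synapse and peptide lists to the right.

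Genes of cell division fell. Of 24 tested mitosis genes 20 fell and none rose, and of 22 DNA replication genes 17 fell and none rose, where 10.4% of all genes tested fell. Mki67, the proliferation antigen, read 1130 and 1140 in C57Bl/6 and 484 and 478 in CD-1 at E13, and 395 in C57Bl/6 and 290 and 219 in CD-1 at E14. At E15 it read 287 and 213 in C57Bl/6 and 326 and 194 in CD-1, and at E16 200 and 178 in C57Bl/6 and 225 and 163 in CD-1. The C57Bl/6 E13 arrays stood far above the rest, and the E14 and E15 arrays overlapped. Its log2 change was -1.18 ± 0.26 (adjusted p = 0.00529), and -0.69 without both C57Bl/6 E13 arrays (adjusted p = 0.0485). Top2a, the topoisomerase of dividing cells, fell by 1.15 ± 0.25 (adjusted p = 0.00476) and by 0.69 without those arrays (adjusted p = 0.046). The spindle checkpoint kinase Bub1 (-1.17), the anaphase activator Cdc20 (-1.15) and the passenger complex subunit Cdca8 (-1.15) fell in the full comparison. Their adjusted p without both C57Bl/6 E13 arrays was 0.138, 0.0627 and 0.0653. Rrm2, a subunit of ribonucleotide reductase, fell by 1.26 ± 0.31 (adjusted p = 0.0086), and the helicase subunit genes Mcm2 and Mcm5 by 1.17 and 0.92. The 5 replication genes not called included the thymidine kinase gene Tk1, at -0.91 (adjusted p = 0.0762). In limma 2 mitosis genes and 0 replication genes were called without both C57Bl/6 E13 arrays, with list medians of -0.55 and -0.40. In CD-1 alone, 22 of 24 mitosis and 20 of 22 replication genes had a lower mean at E15 and E16, and none passed the test.

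The promoters of the 4 mitosis and 3 replication genes with the largest falls and a single start in the table are shown because the mitosis genes moved together and because many promoters of such genes are known to hold a CCAAT box, bound by NF-Y, and a cell cycle homology region (CHR). Each stretch is the 120 bases before the transcription start in RefSeq (GRCm38.p6), 5′ to 3′ on the strand of the gene. Capitals mark CCAAT or TTTGAA on either strand (ATTGG and TTCAAA on the other), and another motif searched, TTCCCGC of the E2F type, is in none of them. The stretches lie at chr7:135716380-135716499 (Mki67), chr2:127831860-127831979 (Bub1), chr4:118437344-118437463 (Cdc20), chr4:124936918-124937037 (Cdca8) and chr6:88898781-88898900 (Mcm2) on the minus strand, and at chr12:24708134-24708253 (Rrm2) and chr8:75109389-75109508 (Mcm5) on the plus strand.
Mki67: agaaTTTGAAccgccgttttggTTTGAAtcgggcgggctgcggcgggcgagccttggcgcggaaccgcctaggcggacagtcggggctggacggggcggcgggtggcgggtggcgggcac
Bub1: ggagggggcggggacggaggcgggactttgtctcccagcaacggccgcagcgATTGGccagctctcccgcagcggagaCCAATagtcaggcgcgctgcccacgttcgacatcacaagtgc
Cdc20: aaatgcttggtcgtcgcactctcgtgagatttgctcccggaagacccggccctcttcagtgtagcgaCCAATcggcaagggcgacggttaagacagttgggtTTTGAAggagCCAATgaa
Cdca8: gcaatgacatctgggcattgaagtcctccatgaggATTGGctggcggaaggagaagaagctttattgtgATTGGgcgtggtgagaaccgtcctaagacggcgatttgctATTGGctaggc
Rrm2: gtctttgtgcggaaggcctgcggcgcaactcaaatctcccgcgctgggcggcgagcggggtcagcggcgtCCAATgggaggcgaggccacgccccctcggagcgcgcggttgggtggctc
Mcm2: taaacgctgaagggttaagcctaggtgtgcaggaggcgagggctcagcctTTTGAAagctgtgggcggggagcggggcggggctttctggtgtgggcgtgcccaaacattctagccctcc
Mcm5: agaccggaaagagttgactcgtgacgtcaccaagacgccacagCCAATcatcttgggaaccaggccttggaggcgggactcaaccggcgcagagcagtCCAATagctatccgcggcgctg
Over the 250 bases before the start, CCAAT was found in 18 of 20 mitosis genes with a promoter in the table (90.0%; 95% exact binomial interval 68.3% to 98.8%) and in 12 of 19 replication genes (63.2%; 38.4% to 83.7%), against 40.4% of 9743 tested genes. TTTGAA was found in 8 of 20 mitosis genes (40.0%; 19.1% to 63.9%) and 3 of 19 replication genes (15.8%; 3.38% to 39.6%), against 12.7% of all. TTCCCGC was found in 0 of 20 mitosis genes and 4 of 19 replication genes (21.1%; 6.05% to 45.6%), against 7.86% of all. The motifs share no letters where they were found in these stretches, and a match is a description of the sequence, not of binding.

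Regulators of G1 fell more often than they rose. Of 13 tested genes 6 fell and 1 rose, where 10.4% of all genes tested fell and 14.6% rose. The count of rises lies below the background. Besides Ccnd1 and Cdkn1c, the falls were those of Gadd45g (-0.98 ± 0.21), the antiproliferative Btg2 (-0.80 ± 0.16), and the cyclin-dependent kinase genes Cdk4 (-0.63) and Cdk6 (-0.39). Cdkn1a, the inhibitor p21, rose by 0.48 ± 0.13 (adjusted p = 0.0109). Ccnd2, the cyclin of basal progenitors, was at -0.53 (adjusted p = 0.0523), with -1.07 in C57Bl/6 and -0.06 in CD-1, a strain difference not called. Its 4 other probe sets were called lower (-0.74 to -0.45, adjusted p over all probe sets between 0.00234 and 0.0423), so the call of this gene depends on the probe set. The count was 4 lower and 0 higher without both C57Bl/6 E13 arrays.

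Many progenitor genes fell as well. Of 21 tested radial glia and progenitor genes 12 fell and 2 rose, where 10.4% of all genes tested fell and 14.6% rose. The count of rises lies below the background. The falls included the growth factor Mdk (-1.09 ± 0.19), the SOX factors Sox3 (-0.81 ± 0.15) and Sox2 (-0.52 ± 0.14), and the intermediate filament genes Nes (-0.75 ± 0.17) and Vim (-0.70 ± 0.15). Fabp7, a lipid carrier of radial glia that astrocytes keep, rose by 0.28 ± 0.08 (adjusted p = 0.0248), and Dbi by 0.30 ± 0.09 (adjusted p = 0.0193). When both C57Bl/6 E13 arrays were left out, 5 were called lower and 0 higher. The summed signal of this list was 21500 to 29900 earlier and 19400 to 25600 later, with overlap.

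Of 18 tested proneural and Notch genes 15 fell and none rose. Neurog2, a basic helix-loop-helix factor of neuronal commitment, read 677, 614, 482 and 669 at E13, 468, 417 and 438 at E14, 259, 186, 511 and 390 at E15, and 71.5, 109, 227 and 198 at E16. The CD-1 E15 female, at 511, overlapped the earlier arrays, and the lowest values were those of C57Bl/6 at E16. Neurog2 fell by 1.24 ± 0.27 (adjusted p = 0.00488), with -0.93 and adjusted p = 0.0602 without both C57Bl/6 E13 arrays. The related Neurog3, which acts in arcuate progenitors, read 64.8 to 154 earlier and 18.8 to 64.4 later and fell by 0.80. The Notch ligand genes Dll1 (-0.82) and Dll3 (-0.68), the glycosyltransferase Mfng (-0.94), and the factors Insm1 (-0.76) and Neurod1 (-0.40) fell too. Of the Notch effectors, Hes1 fell by 0.68 ± 0.11 (adjusted p = 0.00174), with -0.72 in C57Bl/6 and -0.65 in CD-1. Hes5 was at -0.48 ± 0.18 (adjusted p = 0.0589), with earlier arrays of 114 to 502 and later ones of 132 to 326, while its other probe set was called lower (-0.83, adjusted p = 0.0164). Leaving out both C57Bl/6 E13 arrays, 5 of the 18 were lower, Dll1, Hes1 and Mfng among them. In CD-1 alone 18 of 18 had a lower mean later, and 1 passed the test. In the 250 bases before the start, CAGCTG, the E-box of proneural factors, was in 6 of 14 genes with a promoter in the table (42.9%; 17.7% to 71.1%) and in 14.2% of all, and TGGGAA, the core bound by the Notch partner RBPJ, in 5 of 14 (35.7%; 12.8% to 64.9%) and in 23.3% of all.

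Among 14 tested regulators of developmental timing, 5 fell and 2 rose, where 10.4% of all genes tested fell and 14.6% rose. The falls were those of Hmga2, the RNA-binding Igf2bp1 (-0.82 ± 0.23) and Igf2bp3 (-0.39), the Polycomb methyltransferase Ezh2 (-0.64 ± 0.15) and the DNA methyltransferase Dnmt3b (-0.60 ± 0.14). Of the nuclear factor I genes, which act in gliogenesis, Nfix rose by 0.56 ± 0.19 (adjusted p = 0.0379) and Nfib by 0.34 ± 0.11 (adjusted p = 0.032). Nfia was at 0.13 (adjusted p = 0.394). Probe sets disagreed here: another of Nfia was lower (-0.43), and 3 of the 7 of Nfib lay between -0.17 and -0.02. Hmga2 was the 1 gene of the 14 called without both C57Bl/6 E13 arrays (-0.99, adjusted p = 0.0149).

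Transcription factors that pattern the hypothalamus fell more often than they rose, with 21 of 40 lower and 2 higher. Foxd1, a forkhead factor of the early ventral diencephalon, read 353 and 302 in C57Bl/6 and 121 and 144 in CD-1 at E13. At E14 it read 106 in C57Bl/6 and 106 and 59.9 in CD-1, and at E15 and E16 all 8 arrays read 33.3 to 67.6. Its change was -1.39 ± 0.24 (adjusted p = 0.00192). Six6, a factor of eye and suprachiasmatic field, fell by 1.14 ± 0.24 (adjusted p = 0.0039), from a median of 160 to 75.8. Sox14 fell by 0.92 ± 0.23, Otp of neuroendocrine lineages by 0.62 ± 0.15, Isl1 of arcuate neurons by 0.47 ± 0.10 and Nkx2-1 of ventral hypothalamus by 0.45 ± 0.12. Sim1, which works with Otp in paraventricular neurons, was at -0.54 (adjusted p = 0.089), and Nr5a1 of the ventromedial nucleus at -0.36 (adjusted p = 0.189). The 2 rises were the interneuron factor Lhx6 (0.76 ± 0.25, adjusted p = 0.0321) and Arnt2, the partner of Sim1 (0.39 ± 0.10, adjusted p = 0.0111). In CD-1 from E13 to E16, Lhx6 read 563, 499, 721 and 755 in the females and 347, 197, 311 and 368 in the males. In C57Bl/6 it read 110 to 155 earlier and 214 to 440 later. Another probe set of Lhx6 was at 0.18 and not called. Another probe set of Arnt2 was at -0.12 and a further one at 0.05, neither called. The count was 9 lower and 0 higher without both C57Bl/6 E13 arrays. The list's median was -0.39 in C57Bl/6 and -0.38 in CD-1.

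Morphogen signals fell in 8 of 20 tested genes, and none rose. Shh, the ligand of the ventral midline, read 1390, 1340, 1230 and 1210 at E13, 608, 888 and 1010 at E14, 538, 490, 794 and 726 at E15, and 374, 355, 602 and 626 at E16. It fell by 0.92 ± 0.17 (adjusted p = 0.00224), and in each strain the later arrays lay below the earlier ones. Its receptor and target Ptch1 read 1040 to 1660 earlier and 686 to 1010 later without overlap and fell by 0.62 ± 0.10 (adjusted p = 0.00158). The effector Gli3 (-0.89 ± 0.19) and the activin and BMP antagonist Fst (-0.84 ± 0.16) fell as well. These 4 genes were also the 4 called lower without both C57Bl/6 E13 arrays, with adjusted p of 0.0134, 0.0103, 0.0453 and 0.0201.

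**Figure D3:**
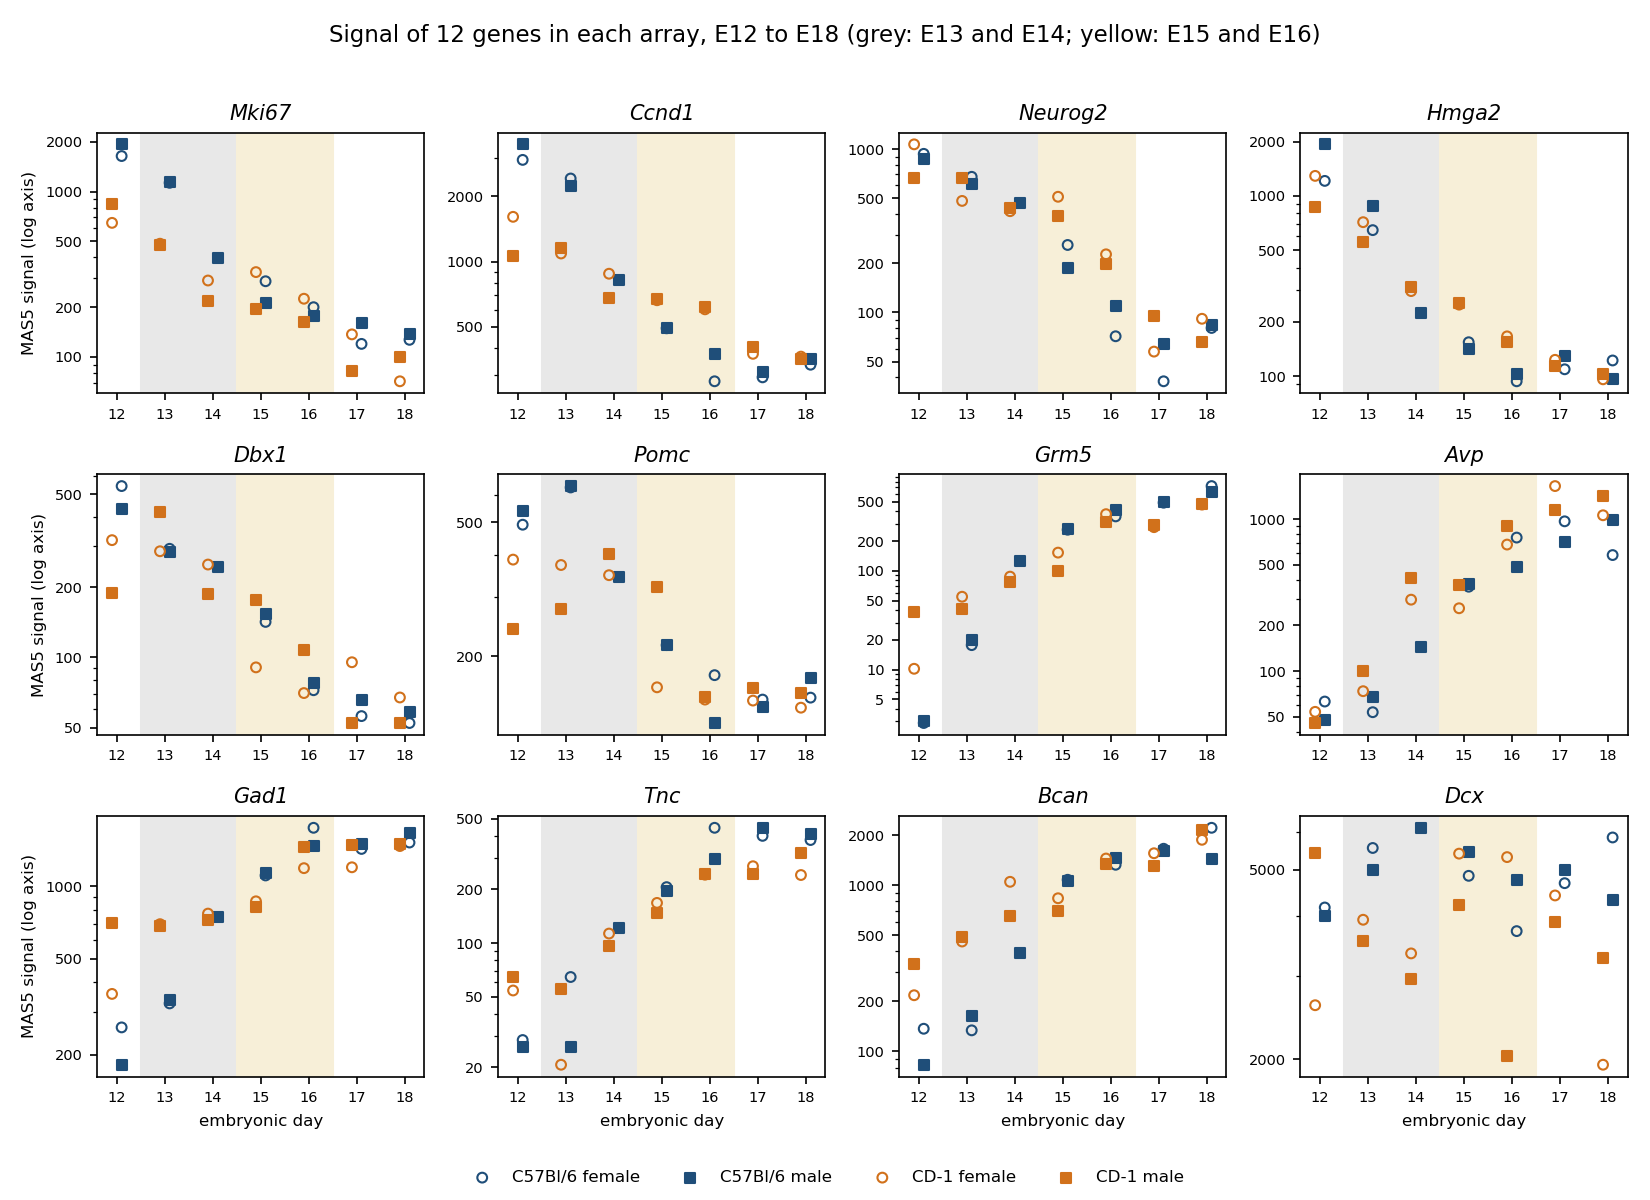
MAS5 signal (log axis, scaled to each gene) of 12 genes against embryonic day, 1 point per array; colour gives the strain, open circles are females and filled squares males, and the C57Bl/6 E14 female is not shown. Mki67, Ccnd1 and Hmga2 are highest at E12 or E13 and lower at E16. Pomc is highest at E13 in C57Bl/6 and at E14 in CD-1, and lower at E16. Grm5, Avp and Bcan rise across the same days, and Dcx shows no trend.

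Neuropeptides rose more often than they fell. Of 27 tested genes of peptides and their processing 13 rose and 2 fell, where 14.6% of all genes tested rose. Avp, the vasopressin precursor of magnocellular and suprachiasmatic neurons, read 53.6, 67.2, 73.7 and 99.5 at E13 and 144, 295 and 409 at E14. It read 359, 376, 259 and 367 at E15 and 756, 486, 680 and 898 at E16, and the CD-1 E14 arrays overlapped those of E15. Avp rose by 1.83 ± 0.34 (adjusted p = 0.00237), and by 1.46 without both C57Bl/6 E13 arrays (adjusted p = 0.0292). Its magnocellular companion Oxt was at -0.03 (adjusted p = 0.864), with medians of 443 and 453. Nts, neurotensin, read 56.1 to 169 earlier and 189 to 360 later without overlap and rose by 1.25 ± 0.19 (adjusted p = 0.00158). The tachykinin precursor Tac1 (1.26 ± 0.24), the stress releasing hormone Crh (1.24 ± 0.30), galanin (Gal, 1.03 ± 0.27) and neuropeptide Y (Npy, 0.55 ± 0.16) rose, as did the granule proteins Scg2 (1.51 ± 0.28) and Vgf (1.42 ± 0.36). Another probe set of Tac1 was at -0.14 and not called. The C57Bl/6 E13 female read 9.38 for Gal, below the other 6 earlier arrays (54.1 to 130).

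The 2 falls were those of the peptide precursors Pomc and Cartpt, and the cells they came from were not tested. Pomc, the precursor of melanocortins, read 633, 639, 373 and 276 at E13, 343, 348 and 403 at E14, 216, 216, 162 and 322 at E15, and 176, 127, 149 and 152 at E16. It fell by 1.12 ± 0.19 (adjusted p = 0.00177), and by 0.85 without both C57Bl/6 E13 arrays (adjusted p = 0.0147). Cartpt read 172 to 454 earlier and 85.8 to 176 later and fell by 1.20 ± 0.20 (adjusted p = 0.00177). The test called none of the peptide genes Sst (0.49, adjusted p = 0.0807), Trh (0.04, adjusted p = 0.902), Ghrh (0.40, adjusted p = 0.248), Pmch (0.47, adjusted p = 0.134) and Hcrt (0.04, adjusted p = 0.803). The differences of Trh, Ghrh and Pmch were 0.61, 1.24 and 1.18 in C57Bl/6 and -0.46, -0.31 and -0.14 in CD-1, and none passed the test for a strain difference. The peptide count was 5 higher and 2 lower without both C57Bl/6 E13 arrays. The palindrome TGACGTCA, the cAMP response element, was in the 250 bases before the start of 4 of 22 peptide genes (18.2%; 5.19% to 40.3%) and of 3.0% of all tested genes. Of the 4 peptide genes with the largest rises and a single start (Avp, Scg2, Tac1 and Nts), Scg2 alone holds it in the 120 bases before its start (chr1:79440027-79440146, minus strand, GRCm38.p6), shown with the element in capitals.
Scg2: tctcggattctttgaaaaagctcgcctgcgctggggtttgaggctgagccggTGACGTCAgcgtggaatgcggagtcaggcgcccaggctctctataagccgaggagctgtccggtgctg

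Genes of fast transmission rose in part. Of 8 tested genes of transmitter synthesis and transport 3 rose. Gad1, which makes GABA, read 327, 339, 697 and 687 at E13 and 747, 771 and 723 at E14. It read 1110, 1140, 867 and 819 at E15 and 1750, 1470, 1190 and 1460 at E16, so the groups did not overlap. Its change was 1.02 ± 0.20 (adjusted p = 0.0032), and 0.62 without both C57Bl/6 E13 arrays (adjusted p = 0.0212). The vesicular GABA transporter Slc32a1 rose by 0.64 ± 0.16 and the glutamate transporter Slc17a6 by 0.50 ± 0.12. The monoamine transporter Slc18a2 fell by 0.34 ± 0.12 (adjusted p = 0.0466), and the dopamine enzyme Th was at -0.07 (adjusted p = 0.666). Gad1 was the 1 gene of the 8 called without both C57Bl/6 E13 arrays.

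Of 22 tested transmitter receptor genes 14 rose and none fell, and without both C57Bl/6 E13 arrays 8 were higher. Beside Grm5 and Glra2, the GABA receptor subunit Gabra5 rose by 1.16 ± 0.25 (adjusted p = 0.00415) and the kainate receptor subunit Grik1 by 1.15 ± 0.25 (adjusted p = 0.00459). Of 22 synapse genes 15 rose and 1 fell. The kinase subunit Camk2b (0.96 ± 0.23), the vesicle proteins Sv2a (0.80 ± 0.14) and Syp (0.69 ± 0.16), the release regulator Cplx1 (0.64 ± 0.15) and the membrane fusion protein Snap25 (0.60 ± 0.16) were among the rises. Of Syp and Snap25 another probe set was at -0.24 and -0.20, not called. The fall was that of Nrxn3 (-0.31 ± 0.11), of which 2 other probe sets rose by 0.71 and 0.55, so the direction of this gene depends on the probe set. The synapse count was 5 higher without both C57Bl/6 E13 arrays.

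Of 20 ion channel and transporter genes 10 rose and none fell. Kcnq3, the M-current channel, rose by 1.49 ± 0.27 (adjusted p = 0.00224). Slc12a5, the chloride exporter that makes GABA inhibitory, rose by 0.97 ± 0.20 (adjusted p = 0.00382), from a median of 910 to 1990. The potassium channel Kcnd2 (0.89 ± 0.20) and the sodium channel Scn2a (0.88 ± 0.20) rose, and another probe set of Scn2a was at -0.04 and not called. The count was 4 higher and 0 lower in limma without both C57Bl/6 E13 arrays.

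Axon genes rose in part. Of 32 tested genes of axon growth and guidance 13 rose and 2 fell, and of 18 cytoskeletal genes 8 rose and none fell. Cntn1 read 177 to 434 earlier and 491 to 1380 later without overlap (1.51 ± 0.23), while another of its probe sets was at 0.00 and not called. The adhesion gene Chl1 (0.81 ± 0.18), the guidance cue Sema3c (0.75 ± 0.17), the neurofilament Nefl (0.70 ± 0.20) and the microtubule protein Mapt (0.43 ± 0.10) rose. The netrin receptor Dcc (-0.36 ± 0.10) and the ephrin Efna5 (-0.42 ± 0.11) fell. Leaving out both C57Bl/6 E13 arrays, 4 guidance genes and 1 cytoskeletal gene were called higher and none lower.

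Genes of newborn neurons moved both ways, with 5 of 20 higher, 4 lower and a median of 0.05. Of all genes tested 14.6% were higher and 10.4% lower. Dcx, the microtubule protein of migrating neurons, had medians of 3930 earlier and 4810 later and a log2 change of 0.00 ± 0.17 (adjusted p = 0.989). The growth cone gene Gap43 rose by 0.58 ± 0.13 and the RNA-binding Elavl3 by 0.30 ± 0.07. The factor Sox11 fell by 0.59 ± 0.15, Igfbpl1 by 0.58 ± 0.19 and the noncoding Dlx6os1 by 0.69 ± 0.19. Leaving out both C57Bl/6 E13 arrays, 2 were called higher and 1 lower.

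Glial genes rose in part. Of 24 tested astrocyte genes 10 rose and 1 fell, and 7 were higher without both C57Bl/6 E13 arrays. Apoe, the lipid carrier of astrocytes and microglia, read 105, 86.0, 99.4 and 79.1 at E13, 111, 153 and 128 at E14, 221, 266, 197 and 185 at E15, and 486, 534, 364 and 383 at E16. The groups did not overlap, and Apoe rose by 1.39 ± 0.21 (adjusted p = 0.00158), with 1.67 in C57Bl/6 and 1.15 in CD-1. The matrix protein Sparcl1 rose by 1.29 ± 0.24 and the enzyme Aldoc by 1.41 ± 0.29. The glutamate transporters Slc1a3 (0.58, adjusted p = 0.0579) and Slc1a2 (0.11, adjusted p = 0.537) were not called by their brightest probe sets. The 3 other probe sets of Slc1a3 were called higher, at 0.83, 1.01 and 0.97 (adjusted p = 0.0315, 0.0197 and 0.00657). Fgfr3, a receptor of early glial progenitors, fell by 0.33 ± 0.10.

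Of 12 tested genes of oligodendrocyte precursors 6 rose and 1 fell, and the count was 6 higher without both C57Bl/6 E13 arrays. Pdgfra, the growth factor receptor that marks these cells, read 10.6 and 5.13 in C57Bl/6 and 80.1 and 65.0 in CD-1 at E13, and 32.8 in C57Bl/6 and 52.3 and 46.0 in CD-1 at E14. The 8 later arrays read 87.9 to 155 without overlap. It rose by 1.42 ± 0.25 (adjusted p = 0.00196), with 2.27 in C57Bl/6 and 0.69 in CD-1, a strain difference not called. The brain proteoglycan Bcan (1.53 ± 0.30), the lineage factor Olig1 (1.14 ± 0.24) and Lhfpl3 (1.11 ± 0.17) rose, the related Olig2 was at 0.23 (adjusted p = 0.413), and Nkx2-2, which also marks ventral progenitors, fell by 0.33 ± 0.12. None of the 6 tested myelin genes was called.

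Other cell types that the dissection could hold gave these values, beside the 14.6% of all genes tested that rose and the 10.4% that fell. Of 13 tested microglia genes 1 rose, C1qa (0.73 ± 0.22), with summed signal of 1270 to 1570 earlier and 1170 to 1510 later. Of 18 vessel genes 4 rose, led by the thyroid hormone and organic anion transporter Slco1c1 (1.06 ± 0.31), with sums of 3580 to 4880 and 4580 to 5960. Of 7 red cell genes 3 fell, the embryonic globins Hbb-bh1 (-2.58 ± 0.43), Hba-x (-2.57 ± 0.43) and Hbb-y (-2.37 ± 0.53), which primitive erythrocytes make. Hbb-bh1 read 43.0 to 357 earlier, and 1.45 to 4.63 in 6 of the 8 later arrays, with 27.1 and 72.7 in CD-1 at E15. None of 5 choroid plexus genes was called, and the summed signal of this list was 2500 and 2350 in CD-1 at E16 and 236 to 867 in the other 13 arrays. Of 15 mesenchyme genes 1 rose (Pdgfra) and 1 fell (Foxd1), both of which other lists hold, and the array left out was chosen by a gene of this list. Of 9 thalamus genes 3 fell and 3 rose, the rises including Calb2 (1.06 ± 0.20) and Gbx2 (0.98 ± 0.27), with sums of 1160 to 1750 and 1460 to 2510. Of 8 cortex genes 2 rose, Tbr1 (0.87 ± 0.27) among them, and Fezf2 fell (-0.57 ± 0.16). The cortex sums were 882 to 1210 earlier and 858 to 1700 later, highest in the CD-1 E15 female. Of 9 genes of striatum and ganglionic eminence 1 rose and 1 fell, with sums of 2540 to 3720 and 2800 to 4590. In CD-1 from E13 to E16 these sums were 3720, 2940, 4530 and 4590 in the females. They were 3130, 2740, 2820 and 3050 in the males. Of 5 ependymal and tanycyte genes Gpr50 fell (-0.82 ± 0.19), and none of 2 pituitary and 3 retina genes was called. With both C57Bl/6 E13 arrays left out, 2 red cell, 1 cortex, 1 thalamus and 1 mesenchyme gene were lower, and 1 cortex, 2 thalamus and 2 mesenchyme genes higher. Microglia, vessel, ependymal and striatal genes then had 0 calls in limma. The part of these tissues in the changes of the other lists was not tested.

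Among further groups, 7 of 19 imprinted genes fell and Nap1l5 rose (0.63 ± 0.19). The falls included Cdkn1c, Mest (-1.04 ± 0.19), the Notch-related Dlk1 (-0.82 ± 0.16) and the adaptor Grb10 (-0.69 ± 0.15), growth regulators of the fetus. Of 14 cholesterol synthesis genes 7 rose, among them Msmo1 (0.54 ± 0.11) and Sc5d (0.66 ± 0.17), of which 2 other probe sets were at -0.03 and 0.05. Of 19 hormone and growth factor receptors 3 rose, with the thyroid hormone receptor Thra at 0.44 ± 0.12, and 1 fell. Of all genes tested 14.6% rose and 10.4% fell, so the receptor counts lie near or below the background. Of 13 clock genes 1 rose, and of 7 immediate early genes 2 fell. With both C57Bl/6 E13 arrays left out, the counts were 4 imprinted genes lower, 1 cholesterol gene higher, 0 receptors and 0 clock genes by limma, and 2 immediate early genes lower.

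Day by day, the step from E13 to E14 gave the most calls. By limma 516 genes (4.29%) changed from E13 to E14, 289 higher and 227 lower. From E14 to E15 0 genes (0%) passed, with 662 at an unadjusted p under 0.05, and from E15 to E16 8 genes (0.0665%) passed, 3 higher and 5 lower. Hmga2 differed by -1.33 from E13 to E14 (adjusted p = 0.00668), by -0.42 from E14 to E15 (adjusted p = 0.896) and by -0.56 from E15 to E16 (adjusted p = 0.215). Mki67 differed by -1.22 (adjusted p = 0.0166), -0.29 (adjusted p = 0.916) and -0.37 (adjusted p = 0.561) over the same steps, and Avp by 1.59 (adjusted p = 0.00889), 0.41 (adjusted p = 0.911) and 1.0 (adjusted p = 0.118). Apoe rose from E15 to E16 (0.97, adjusted p = 0.0123) and was at 0.46 from E13 to E14 (adjusted p = 0.0835). Mest (-0.88), Sinhcaf (-0.67) and Hbb-y (-2.65) fell from E15 to E16. The E14 to E15 count was 1 without the CD-1 E15 female. Whether 1 step was larger than another was not tested. The E13 to E14 count was 0 without both C57Bl/6 E13 arrays, with 1514 at an unadjusted p under 0.05. It was 196 without the C57Bl/6 E13 female, 97 without the C57Bl/6 E13 male, 808 and 872 without the CD-1 E13 female and male, 89 without the C57Bl/6 E14 male, and 277 and 3 without the CD-1 E14 female and male. The E15 to E16 count was 81 without both C57Bl/6 E13 arrays, 4 and 18 without the C57Bl/6 E15 female and male, 3 and 0 without the CD-1 E15 female and male, 5 and 3 without the C57Bl/6 E16 female and male, and 3 without the CD-1 E16 female.

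Within each strain the order of days differed by list. The median step of the mitosis list was -1.17, -0.46 and -0.19 over the 3 steps in C57Bl/6, and -0.90, 0.15 and -0.55 in CD-1. The proneural list had median steps of -0.41, -0.26 and -0.25 in C57Bl/6 and -0.32, -0.13 and -0.31 in CD-1. The hypothalamic region factors had median steps of -0.03, -0.26 and -0.32 in C57Bl/6 and -0.05, -0.22 and -0.18 in CD-1, so their medians moved least at the step where the mitosis list moved most. Transmitter receptors had median steps of 0.87, 0.22 and 0.17 in C57Bl/6 and 0.43, -0.03 and 0.56 in CD-1. Over all genes the median of each step lay between -0.02 and 0.02 in both strains.

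**Figure D4:**
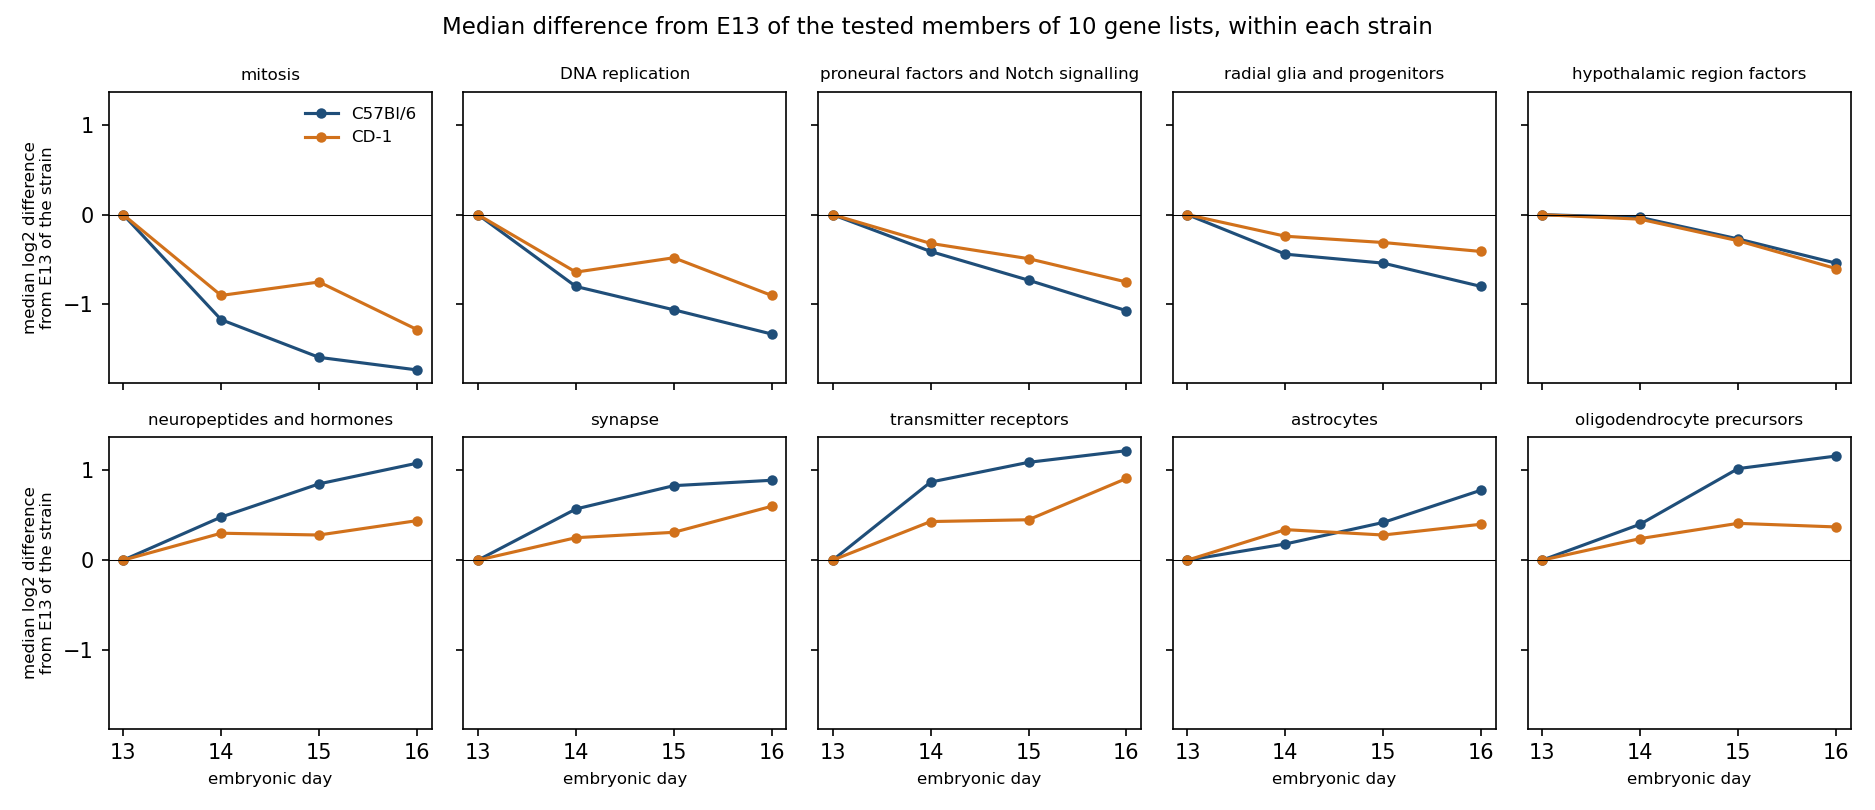
Median log2 difference from the E13 mean of the same strain, over the tested members of 10 lists, against embryonic day, with C57Bl/6 in blue and CD-1 in orange; these are medians over genes, and no error is shown because each point rests on 1 or 2 arrays. The mitosis and replication lists drop most from E13 to E14 in both strains, and in CD-1 both turn up from E14 to E15.

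The strains differed in the change itself for 8 genes (0.0665%), 1 with a higher and 7 with a lower change in CD-1. None of the genes whose change is given by strain above was among them. The earlier C57Bl/6 arrays lack the E14 female, so their ages lean more to E13 than those of CD-1. Dguok, a mitochondrial nucleoside kinase, read 14.4 to 27.4 in the 3 earlier and 88.4 to 136 in the 4 later C57Bl/6 arrays, and 178 to 233 in the 8 CD-1 arrays. Its change in CD-1 minus that in C57Bl/6 was -1.97 ± 0.21 (adjusted p = 0.000331). Gtpbp6 (-1.84 ± 0.25), the autophagy gene Atg101 (-1.97 ± 0.30) and the lysosomal enzyme Aga (-1.67 ± 0.26) had a lower change in CD-1 too. Cldn3, a tight junction gene, read 109 and 111 in C57Bl/6 at E13, 27.1 at E14 and 14.8 to 25.5 later. In CD-1 it read 13.0 to 24.7 earlier and 44.8 to 103 later, and the difference of changes was 2.61 ± 0.45 (adjusted p = 0.0348). The count was 1638 without the C57Bl/6 E14 male. It was 3 without the C57Bl/6 E13 female, the C57Bl/6 E15 male or the C57Bl/6 E16 male, 2 without the CD-1 E14 female or the CD-1 E16 female, 4 and 14 without the CD-1 E13 female and male, and 5 without the C57Bl/6 E16 female, the CD-1 E15 female or both C57Bl/6 E13 arrays.

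The days before and after give the setting. E13 and E14 against the 4 arrays of E12 gave 1573 genes (13.1%), and the 8 arrays of E17 and E18 against E15 and E16 gave 1251 (10.4%). These comparisons share the arrays of E13 and E14, or of E15 and E16, with the one described here. The difference from the change before passed for 0 genes in limma (0%), with 1209 at an unadjusted p under 0.05. The difference from the change after passed for 1 gene (0.00831%), with 1597 at an unadjusted p under 0.05. The count before was 1 without the CD-1 E15 female or without both C57Bl/6 E13 arrays. The count after was 2 without the C57Bl/6 E14 male, the C57Bl/6 E15 male, the C57Bl/6 E16 male or the CD-1 E15 female. The gene called was Trps1, a GATA-type repressor, whose mean signal was 254 ± 49.6 (SD, n = 7) at E13 and E14, 155 ± 34.7 (SD, n = 8) at E15 and E16, and 240 and 219 at E17 and E18. It fell by 0.64 ± 0.10 and then rose by 0.53 (adjusted p = 0.00091), and the difference of the changes was -1.16 (adjusted p = 0.00152). The other 2 probe sets of Trps1 were at -0.29 and 0.08 between the pooled days, and neither was called. The mitosis list had medians of -0.96 from E12, -0.93 here and -0.51 to E17 and E18. Neurog2 was at -0.73 from E12 (adjusted p = 0.0951), fell here by 1.24, and fell by 1.39 afterwards (adjusted p = 0.00046). Hypothalamic region factors had medians of 0.08, -0.41 and -0.32 over these intervals. Astrocyte genes had medians of 0.18, 0.30 and 0.47, and the differences of Apoe were -0.22 (adjusted p = 0.66), 1.39 and 1.78 (adjusted p = 2.34e-05). Crh was at 0.83 from E12 (adjusted p = 0.0866), rose here by 1.24, and was at -0.02 afterwards (adjusted p = 0.973).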

How the data were processed

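Total RNA from 48 dissections was amplified with an oligo-dT primer and hybridised to MOE430 arrays, per the labels. The authors' deposited values are array intensities (MAS5 signal, linear scale), made with GCOS 1.4 and MAS5 per the submitters' processing notes. The trimmed mean was 150.0 in every array, so no further scaling was applied. Probe sets were named from the platform annotation: 34945 of 45101 carry 1 gene, 932 several, 9160 are not listed and 64 are controls, and symbols were compared through gene IDs with RefSeq (GRCm38.p6), which changed 0 of them. The filter asked for a signal over the array's median in 4 or more arrays out of 15, and the brightest probe set stood for its gene, which left 12038 genes. limma 3.58.1 in R 4.3.3 (lmFit, eBayes with trend) was fitted to log2(signal + 16) with strain as covariate (12 residual degrees of freedom), two-sided, with Benjamini-Hochberg adjustment over all genes tested and calls under 0.05. The fit was checked on simulated arrays with known changes and independent noise, which cannot test the effect of correlation between arrays of an age and strain. Of 720 list entries 662 are on the array, and those not on the array or not tested were not analysed here. Members, lists, promoter motifs and tests were chosen with earlier results of these data known. Genes were named by rule: the 12 largest called rises and falls that kept apart within each strain, up to 4 called changes each way per list, key hypothalamic genes, up to 4 interaction genes each way, and up to 6 each way that differed from the interval before or after. Tk1 was named after its values were seen. Alternatives covered the log2 offset, filter, probe set rule, normalization, covariates, blocks, array weights and arrays left out, and the 2 that leave out both C57Bl/6 E13 arrays or all 4 E13 arrays were chosen after seeing the data. Motifs were searched on both strands in RefSeq promoters, leaving out chromosome 18, and a gene with several starts counts when any holds the motif. The number of arrays sets the precision, and intervals of shares cover counting error only.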

Additional observations from a re-analysis of the deposited data

Results flagged for a closer look

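Of 304 groups checked (the earlier and the later arrays of 152 named genes), 11 held an array far from the others by Dixon's test, and chance alone gives about 1 in 20 groups. Among the later arrays, the CD-1 E15 female stood above the other 7 for the replication genes Rrm2 (927 against 278 to 462) and Mcm5 (325 against 145 to 197), and the CD-1 E15 male for Cartpt (176 against 85.8 to 121). The C57Bl/6 E16 female was low for Sox2 (1210 against 1580 to 2000) and high for Sv2a (1110 against 448 to 674). The CD-1 E16 male was low for Dcx (2030 against 3720 to 5460), and the CD-1 E16 female high for Mapt (7850 against 5440 to 6400). Among the earlier arrays, the C57Bl/6 E14 male was low for Apool (65.2 against 124 to 174) and Slc18a2 (151 against 196 to 224). The C57Bl/6 E13 female was low for Gal (9.38 against 54.1 to 130), and the CD-1 E14 male high for Kcnq3 (114 against 18.6 to 39.2).

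The change from earlier to later days differed between the strains by an interaction test in limma for 5 named genes, given as CD-1 minus C57Bl/6 on the log2 scale. These were Cldn3 at 2.61, Dguok at -1.97, Atg101 at -1.97, Gtpbp6 at -1.84 and Aga at -1.67, with adjusted p between 0.000331 and 0.0348. The C57Bl/6 E14 female, left out of the comparisons except where its effect was tried, read 3500 for Col3a1, against 56.4 to 201 in the 15 arrays compared.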

How the results depend on the processing

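The count of 3002 genes moved by over 1.5 times in these settings: 1700 with no strain term, 1663 with age and strain as a random block (correlation 0.336), 0 with the female and male array of an age and strain averaged, 23 in CD-1 alone, 690 without both C57Bl/6 E13 arrays and 2 without the 4 E13 arrays, the last 2 chosen after the data were seen. Leaving out single arrays gave 1914 to 3416, and the counts without the C57Bl/6 E13 female (1967) and male (1914) also moved by over 1.5 times. The other settings gave 2202 to 3408, including 3408 with the C57Bl/6 E14 female. Within 100 bases of the start CCAAT was in 16 of 20 mitosis genes (80.0%) and 25.8% of all. Of the 133 named genes called, 66 kept their call without both C57Bl/6 E13 arrays.

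The strain interaction (8 genes) gave 68 after quantile normalization, 23 with the C57Bl/6 E14 female, 3 without the C57Bl/6 E16 male, 5 without both C57Bl/6 E13 arrays, and 2 to 1638 without single arrays. E14 against E13 (516) gave 91 with the C57Bl/6 E14 female, 0 without both C57Bl/6 E13 arrays and 3 to 872 without single arrays. E15 against E14 (0) gave 1 with the C57Bl/6 E14 female and 0 to 1 without single arrays. E16 against E15 (8) gave 4 after quantile normalization, 3 without the C57Bl/6 E16 male, 81 without both C57Bl/6 E13 arrays and 0 to 18 without single arrays. The difference from the change before (0) gave 1 without both C57Bl/6 E13 arrays and 0 to 1 without single arrays, and that from the change after (1) gave 2 without the C57Bl/6 E16 male and 1 to 2 without single arrays. The causes were not tested. Nrxn3 reversed with all its probe sets averaged (0.33), Dguok in CD-1 alone (-0.11) and Cldn3 in C57Bl/6 alone (-1.28). Beyond strain and sex, the labels link no array of an age to an array of another age, so no paired analysis was made.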
